A study of Mus musculus with 12 samples.

Results

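The genes described here are the 5 subunits of the transcription factor NF-kB (*Rela*, *Rel*, *Relb*, *Nfkb1*, and *Nfkb2*) and 5 of its inhibitors (*Nfkbia*, *Nfkbib*, *Nfkbie*, *Nfkbiz*, and *Tnfaip3*). They were taken by symbol from the deposited expression table, where each has 1 line, so that 10 of 32051 genes are members. NF-kB is a dimer of subunits that share a Rel homology domain. In the canonical pathway, the T cell receptor and CD28 activate the IKK kinase, IKK marks the IkB proteins for destruction, and the freed dimers of RelA or c-Rel with p50 enter the nucleus. In the noncanonical pathway, receptors of the TNF family stabilize the kinase NIK, and p100, the product of *Nfkb2*, is cut to p52, the partner of RelB. Several inhibitor genes are themselves NF-kB targets, and both arms are known to act on the *Il9* gene in Th9 cells, the IL-9–producing subset of helper T cells.

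The RNA came from Th9 cells made from naive CD4+ splenic T cells of C57BL/6J mice and taken on day 4 of culture. All groups received IL-4 (10 ng/mL), TGF-β (1 ng/mL), antibodies that block IL-12 and IFN-γ, anti-CD3 fixed to the plate, and anti-CD28 in solution, so no group shows resting cells. DMSO was the vehicle control, EpA (endomelipeptide A, a fungal cyclolipopeptide) was given at 10 μM, fatostatin (labeled DMSO+fato, an inhibitor of SREBP1) at 5 μM, and the fourth group (labeled EpA+fato) received both compounds at these doses. Each group had 3 libraries, and since the labels do not say whether these were separate cultures or animals, p-values measure the spread between these samples, which may be technical. The mice were 6 to 8 weeks old. The comparisons ask how EpA alters gene expression in Th9 cells and whether fatostatin alters that effect.

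Values are FPKM, reads scaled to exon length and to the reads of the library. The length covers all annotated exons of a gene, from 1610 bases (*Nfkbia*) to 12061 bases (*Nfkb1*) among members, and a transcript may hold fewer. Levels can thus be compared between genes only roughly. Between 36607306 and 44375796 reads stood behind a library, and a member had from 272 reads (*Nfkbiz*) to 43053 reads (*Nfkb1*) in a library. All 7 T cell markers examined had a mean of at least 1 FPKM, and *Il9* was present in every library, at 51.0 to 57.7 FPKM in DMSO, 620 to 652 FPKM in EpA, 60.7 to 70.8 FPKM in fatostatin, and 802 to 855 FPKM with both compounds. The summed T cell markers moved with the groups, from 602 to 613 FPKM in DMSO to 530 to 535 FPKM in EpA, 583 to 600 FPKM in fatostatin, and 507 to 511 FPKM with both compounds. Sums for CD8 or NK cell markers were 13.9 to 15.0, 10.98 to 11.6, 12.3 to 13.9, and 9.0 to 10.96 FPKM in the same order. Sums of 6 macrophage or monocyte markers ran from 1.21 FPKM in DMSO to 2.91 FPKM with both compounds, mostly *Cd68*. Sums of 6 B cell markers, mostly *Cd79b*, were 6.00 to 7.95 FPKM in DMSO and 5.22 to 6.27 FPKM in EpA. They were 7.58 to 8.71 FPKM in fatostatin and 6.33 to 6.94 FPKM with both compounds. Dendritic cell markers summed to at most 0.737 FPKM with *Siglech* at 0, granulocyte markers to at most 1.13 FPKM, and erythroid markers to at most 2.27 FPKM with *Hba-a2* at 0. The part of these cell type markers in the results was not tested, and in such bulk RNA fewer cells of a type and less RNA per cell cannot be told apart.

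The sequences before the start sites of members are shown because NF-kB subunits bind DNA at kappa B sites and several members are described as NF-kB targets. RefSeq windows (GRCm38.p6) were given for 7 of the 10 members, in 10 windows, and the 250 bases before each start were searched on both strands for the kappa B consensus motif. A match was found for 5 members: *Nfkbia*, *Nfkbie*, *Tnfaip3*, *Rel*, and *Nfkb2*. The windows of *Rela* and *Nfkbib* held none, and among all genes with a window 8.23% had one (7.25% of 32851 windows). These shares were not matched to the members for base makeup or for windows per gene. Capitals mark the matches, and in *Rel* and *Nfkb2* the capitals join matches that overlap by all but 1 base. Only part of 1 *Nfkb2* window is printed, and further matches lay in that window and in its other windows. The stretches of *Nfkbia*, *Nfkbie*, *Rel*, and *Rela* lie upstream of the GENCODE gene, that of *Tnfaip3* lies inside the gene outside its exons, and that of *Nfkb2* lies in one of its exons.
Nfkbia, chr12:55492648-55492777, minus strand: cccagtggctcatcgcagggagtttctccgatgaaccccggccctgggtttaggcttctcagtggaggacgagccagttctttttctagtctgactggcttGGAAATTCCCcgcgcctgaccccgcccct
Nfkbie, chr17:45555570-45555699, plus strand: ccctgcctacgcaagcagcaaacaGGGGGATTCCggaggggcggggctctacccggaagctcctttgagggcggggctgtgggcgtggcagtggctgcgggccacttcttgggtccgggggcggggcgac
Tnfaip3, chr10:19015411-19015540, minus strand: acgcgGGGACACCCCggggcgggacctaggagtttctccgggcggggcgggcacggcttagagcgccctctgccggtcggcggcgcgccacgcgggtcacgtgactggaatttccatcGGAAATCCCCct
Rel, chr11:23770971-23771099, minus strand: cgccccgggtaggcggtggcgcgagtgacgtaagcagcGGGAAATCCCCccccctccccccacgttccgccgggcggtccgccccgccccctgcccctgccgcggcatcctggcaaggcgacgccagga
Nfkb2, chr19:46304688-46304717, plus strand: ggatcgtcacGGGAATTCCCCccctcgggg
Rela, chr19:5637411-5637482, plus strand, no match: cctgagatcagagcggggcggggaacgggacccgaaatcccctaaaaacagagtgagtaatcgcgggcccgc
These matches describe letters in a window and show no binding.

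Against DMSO, 5 of the 10 genes rose with EpA and 7 of 10 with fatostatin, and none of the 10 members was called lower in this fit. Each member was tested with limma on log2(FPKM + 0.1) among 13733 genes, and a member was called when its Benjamini-Hochberg adjusted p was below 0.05. With both compounds, 8 of 10 were higher than with EpA alone and 8 of 10 higher than with fatostatin alone. Of all genes tested, 14.3% were called higher and 13.1% lower with EpA, and 7.69% higher and 6.31% lower with fatostatin. For both compounds, 9.22% were called higher and 6.79% lower than EpA, and 16.2% higher and 13.3% lower than fatostatin. The median log2 difference of the members was 0.13, 0.27, 0.38, and 0.34 in these 4 comparisons, beside medians of all tested genes from 0.0023 to 0.0149. Changes were modest in size. Only *Nfkbie*, with both compounds against EpA, passed a 1.5-fold limit as well, where 1.51% of all genes did so in that direction. In the other comparisons 0 members did, beside 1.44% of genes with EpA, 1.35% with fatostatin, and 1.89% with the combination against fatostatin. With a pseudocount of 1, the genes this much higher fell from 198 to 58 with EpA and from 186 to 55 with fatostatin. With both compounds they fell from 207 to 51 against EpA and from 259 to 70 against fatostatin. The 4 comparisons share libraries with each other, so the same group enters more than 1 of these counts. Median ratio scaling turned the balance of calls over all genes in the comparisons with both compounds. Against EpA the calls were 1090 higher and 1252 lower, in place of 1266 and 933 as scaled by the authors. Against fatostatin they were 1981 higher and 2087 lower, in place of 2221 and 1830. The count of members called was within 1.5 times of the count given here in each alternative tried.

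**Figure D1:**
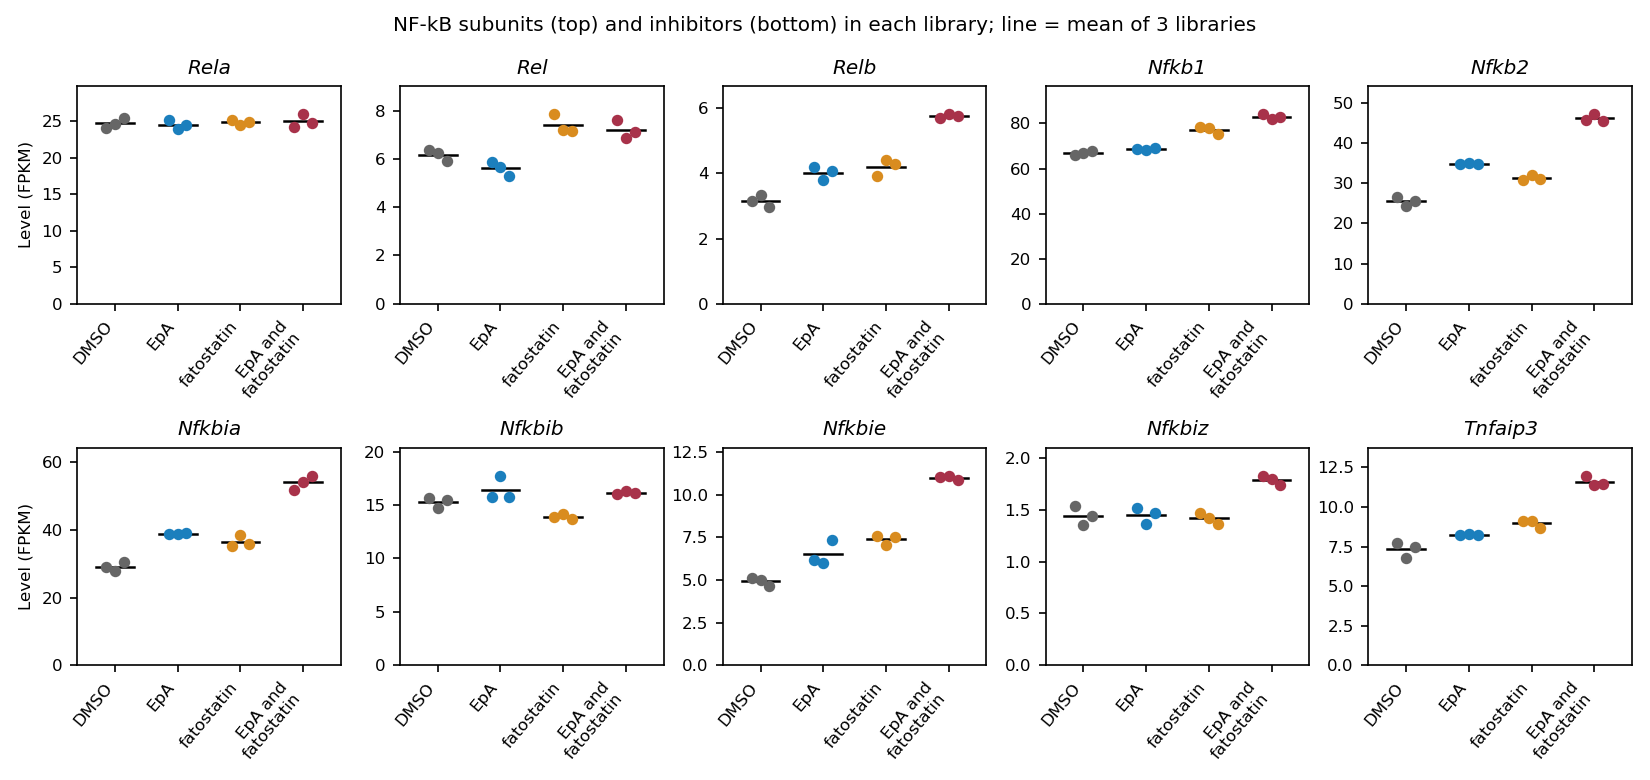
Level in FPKM (vertical axis, from 0, its own scale for each gene) of the 5 subunits (top) and 5 inhibitors (bottom) in each of the 12 libraries, with a line at the mean of the 3 libraries of a group. *Relb*, *Nfkb2*, *Nfkbia*, *Nfkbie*, and *Tnfaip3* step up from DMSO to the single compounds and again to both compounds, while *Rela* stays between 24.0 and 26.0 FPKM.

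*Rela* (ENSMUSG00000024927; GRCm38 chr19:5637483-5648130) encodes RelA, also called p65, the main activating subunit of the canonical pathway. Its level was 24.1, 24.7, and 25.5 FPKM in DMSO, 25.2, 24.0, and 24.5 FPKM in EpA, 25.2, 24.5, and 24.9 FPKM in fatostatin, and 24.2, 26.0, and 24.8 FPKM with both compounds. All 4 groups overlapped. No difference passed the test, with log2 differences from −0.01 to 0.03 (SE 0.031) and adjusted p from 0.648 to 0.905. The 95% intervals bounded every difference between −0.08 and 0.09 on the log2 scale, and the group means spanned 0.025.

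*Rel* (ENSMUSG00000020275; chr11:23736847-23770970) encodes c-Rel, the lymphocyte subunit that drives cytokine genes after T cell receptor engagement. It was at 6.34, 6.26, and 5.89 FPKM in DMSO and at 5.88, 5.65, and 5.30 FPKM in EpA. Fatostatin gave 7.84, 7.20, and 7.13 FPKM, and both compounds gave 7.60, 6.85, and 7.12 FPKM. Each library with fatostatin was above each library without it. *Rel* rose by 0.26 on the log2 scale with fatostatin (SE 0.056, adjusted p = 0.00966) and by 0.35 with both compounds against EpA (adjusted p = 0.00132). EpA libraries lay below all DMSO libraries, but the log2 difference of −0.13 did not pass the test (adjusted p = 0.100). Both compounds against fatostatin gave −0.04 (95% interval −0.16 to 0.08, adjusted p = 0.653).

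*Relb* (ENSMUSG00000002983; chr7:19606217-19629438) encodes RelB, the activating subunit of the noncanonical pathway. DMSO libraries held 3.14, 3.35, and 2.96 FPKM, EpA libraries 4.21, 3.80, and 4.08 FPKM, fatostatin libraries 3.91, 4.42, and 4.29 FPKM, and libraries with both compounds 5.69, 5.81, and 5.75 FPKM. The single compounds overlapped each other, and both lay above DMSO and below the combination. *Relb* rose 1.27-fold with EpA (log2 difference 0.35, SE 0.060, adjusted p = 0.00132) and 1.33-fold with fatostatin (log2 difference 0.41, adjusted p = 0.000854). With both compounds it was 1.42-fold above EpA (adjusted p = 0.000169) and 1.36-fold above fatostatin (adjusted p = 0.000213).

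*Nfkb2* (ENSMUSG00000025225; chr19:46304320-46312385) encodes p100, which holds RelB in the cytoplasm until it is cut to p52. Its levels were 26.5, 24.3, and 25.5 FPKM in DMSO, 34.7, 34.96, and 34.7 FPKM in EpA, 30.6, 32.0, and 31.0 FPKM in fatostatin, and 45.8, 47.1, and 45.4 FPKM with both compounds. No 2 groups overlapped, and here EpA exceeded fatostatin. The rise with EpA was 1.37-fold (log2 difference 0.45, SE 0.030, adjusted p = 1.24e-06) and that with fatostatin 1.23-fold (log2 difference 0.29, adjusted p = 5.68e-05). Both compounds were 1.32-fold above EpA (adjusted p = 4.42e-06) and 1.48-fold above fatostatin (adjusted p = 1.82e-07). *Nfkb2* shares 531 exon bases with AC114539.1 and 299 with *Psd* on the opposite strand, and whether reads were counted by strand is not given in the sources used here. AC114539.1 held 4.00 to 5.98 FPKM. *Psd* held 1.28 to 1.39 FPKM in DMSO, 1.62 to 1.80 FPKM in EpA, 1.86 to 2.09 FPKM in fatostatin, and 2.59 to 2.81 FPKM with both compounds, so reads of these genes cannot be told apart where they overlap.

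*Nfkb1* (ENSMUSG00000028163; chr3:135584655-135691547) encodes p105, the precursor of p50 and itself able to hold Rel proteins in the cytoplasm. It was the highest member in every library. Its level was 66.1, 66.7, and 67.6 FPKM in DMSO, 68.6, 68.3, and 69.2 FPKM in EpA, 78.3, 78.1, and 75.4 FPKM in fatostatin, and 84.0, 82.1, and 82.7 FPKM with both compounds. EpA libraries lay just above DMSO, and the larger step was with fatostatin. The log2 difference with EpA, 0.04 (SE 0.019), did not pass the test (adjusted p = 0.152), whereas fatostatin gave a 1.16-fold rise (0.21, adjusted p = 2.29e-05). Both compounds were 1.21-fold above EpA (0.27, adjusted p = 2.74e-06) and 1.07-fold above fatostatin (0.10, adjusted p = 0.00184).

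Among the inhibitors, *Nfkbia* (ENSMUSG00000021025; chr12:55489410-55492647) encodes IkBα, the inhibitor that NF-kB itself induces and that ends its response. DMSO libraries held 29.0, 27.9, and 30.5 FPKM, EpA libraries 38.7, 38.8, and 39.3 FPKM, fatostatin libraries 35.4, 38.4, and 35.8 FPKM, and libraries with both compounds 51.9, 54.2, and 56.0 FPKM. No 2 groups overlapped, although the highest fatostatin library came close to EpA. *Nfkbia* rose 1.33-fold with EpA (log2 difference 0.42, SE 0.039, adjusted p = 1.67e-05) and 1.25-fold with fatostatin (0.32, adjusted p = 0.00021). It was 1.39-fold higher with both compounds than with EpA (0.47, adjusted p = 1.04e-05) and 1.48-fold higher than with fatostatin (0.56, adjusted p = 1.42e-06).

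*Nfkbie* (ENSMUSG00000023947; chr17:45555703-45563169) encodes IkBε, a slower inhibitor of RelA and c-Rel dimers. Its group means spanned the widest range of all members, 1.147 on the log2 scale. It was at 5.13, 4.98, and 4.66 FPKM in DMSO, 6.18, 6.00, and 7.35 FPKM in EpA, 7.59, 7.05, and 7.55 FPKM in fatostatin, and 11.1, 11.1, and 10.9 FPKM with both compounds. The third EpA library reached into the fatostatin range, and the combination stood clear of every other library. The rise was 1.31-fold with EpA (log2 difference 0.39, SE 0.068, adjusted p = 0.0013) and 1.49-fold with fatostatin (0.58, adjusted p = 0.000158). Both compounds exceeded EpA 1.69-fold (0.76, adjusted p = 1.87e-05) and fatostatin 1.48-fold (0.57, adjusted p = 8.4e-05).

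*Tnfaip3* (ENSMUSG00000019850; chr10:19000910-19015657) encodes A20, an enzyme that edits ubiquitin chains upstream of IKK and limits canonical signaling. Its levels were 7.73, 6.79, and 7.49 FPKM in DMSO, 8.21, 8.31, and 8.25 FPKM in EpA, 9.09, 9.11, and 8.70 FPKM in fatostatin, and 11.97, 11.4, and 11.4 FPKM with both compounds. The 4 groups stood in this order without overlap. EpA raised it 1.13-fold (log2 difference 0.17, SE 0.045, adjusted p = 0.0145), and this call was lost when only the DMSO and EpA libraries entered the fit (adjusted p = 0.0508). Fatostatin raised it 1.22-fold (0.29, adjusted p = 0.00118). Both compounds gave 1.40-fold over EpA (0.49, adjusted p = 2.3e-05) and 1.29-fold over fatostatin (0.37, adjusted p = 9.6e-05).

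*Nfkbib* (ENSMUSG00000030595; chr7:28758251-28767512) encodes IkBβ, an IkB protein with a more lasting hold on its dimers. It did not follow *Nfkbia* and *Nfkbie*. DMSO libraries held 15.7, 14.7, and 15.5 FPKM, EpA libraries 15.7, 17.7, and 15.7 FPKM, fatostatin libraries 13.9, 14.1, and 13.7 FPKM, and libraries with both compounds 16.0, 16.3, and 16.1 FPKM. Fatostatin alone was the lowest group, below all DMSO libraries. That difference, −0.14 on the log2 scale (SE 0.044), did not pass the test (adjusted p = 0.064), and it did so without EpA replicate 2 (adjusted p = 0.0107), the library at 17.7 FPKM, or with only the 2 compared groups in the fit (adjusted p = 0.0453). The one called difference was that between both compounds and fatostatin, 1.16-fold (0.21, adjusted p = 0.00344). EpA against DMSO gave 0.10 (adjusted p = 0.124), or 0.041 without EpA replicate 2, and both compounds against EpA −0.02 (adjusted p = 0.812). *Nfkbib* shares 42 exon bases with *Sirt2*, at 10.8 to 13.8 FPKM, and 314 with *Ccer2*, at no more than 0.0456 FPKM, on the opposite strand, so its value carries the same doubt as that of *Nfkb2*.

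*Nfkbiz* (ENSMUSG00000035356; chr16:55811375-55838899) encodes IkBζ, a nuclear IkB protein that can also activate some NF-kB targets. It was the lowest member. Its levels were 1.54, 1.36, and 1.44 FPKM in DMSO, 1.52, 1.36, and 1.47 FPKM in EpA, 1.47, 1.42, and 1.37 FPKM in fatostatin, and 1.83, 1.80, and 1.75 FPKM with both compounds. The first 3 groups overlapped, and only the combination stood above them. Neither compound alone gave a difference that passed the test (0.01, adjusted p = 0.952 for EpA and −0.02, adjusted p = 0.906 for fatostatin, SE 0.072). With both compounds it was 1.22-fold above EpA (0.29, adjusted p = 0.0189) and 1.24-fold above fatostatin (0.31, adjusted p = 0.00657). The first of these calls was lost without EpA replicate 2 (adjusted p = 0.0729), without replicate 1 or 2 of the combination (adjusted p = 0.0612 and 0.0533), and with only the 2 compared groups in the fit (adjusted p = 0.0543). At such low FPKM these 2 log2 differences also depended on the pseudocount, and with a pseudocount of 1, which shrinks differences of low genes, they were 0.19 and 0.20. *Nfkbiz* had 272 to 390 reads a library.

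**Figure D2:**
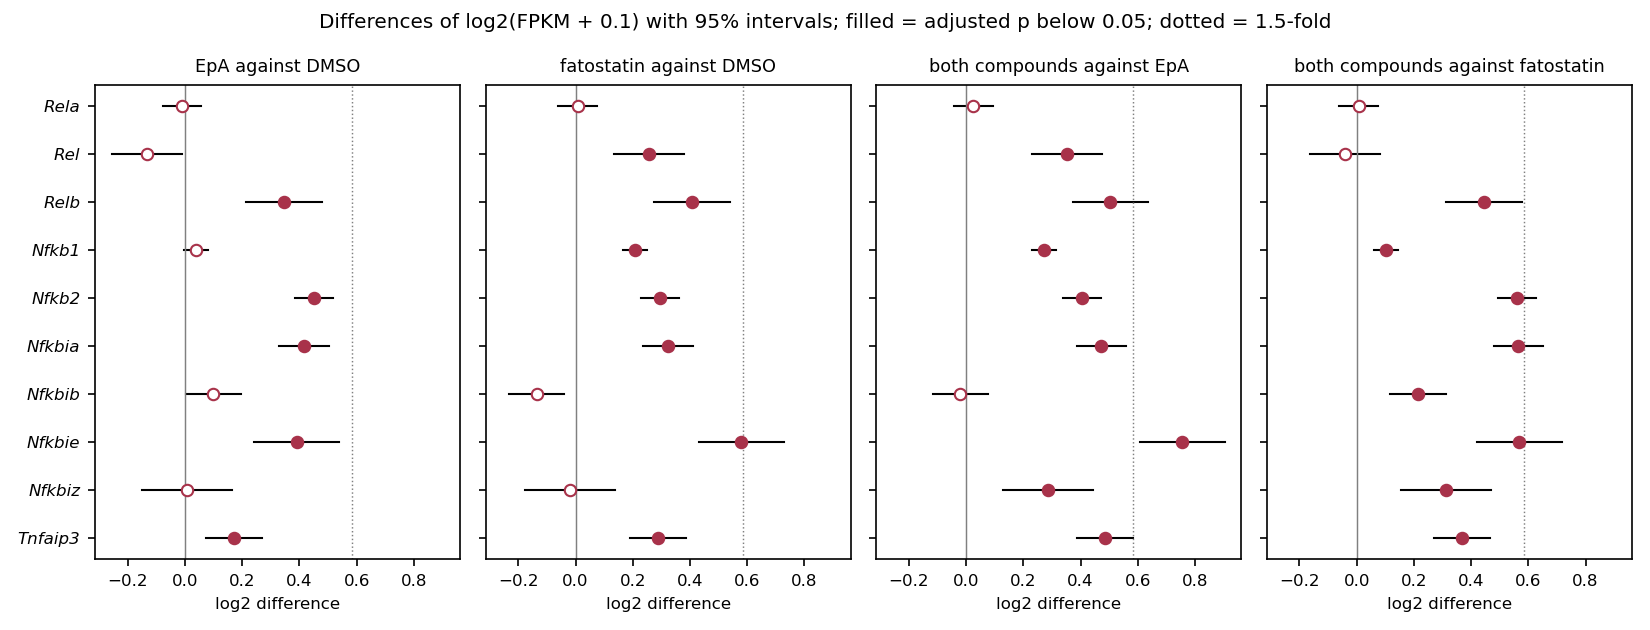
Log2 difference of log2(FPKM + 0.1) for each member (rows) in the 4 comparisons (panels), with 95% intervals; filled points passed an adjusted p of 0.05, and the dotted line marks 1.5-fold. *Rela* sits at 0 in all 4 panels, *Rel* is called only in the 2 comparisons that add fatostatin, and *Nfkbie* with both compounds against EpA lies farthest right, at 0.76.

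By role, every call among subunits and among inhibitors was higher, and the counts of both roles lay within 2 genes of each other in each comparison. EpA raised 2 of 5 subunits, both of the noncanonical arm (*Relb* and *Nfkb2*), and 3 of 5 inhibitors (*Nfkbia*, *Nfkbie*, and *Tnfaip3*), beside 14.3% of all genes. Fatostatin raised 4 of 5 subunits, all but *Rela*, and the same 3 inhibitors, beside 7.69% of all genes. Both compounds against EpA gave 4 of 5 subunits and 4 of 5 inhibitors higher, beside 9.22%, and both compounds against fatostatin 3 of 5 subunits and 5 of 5 inhibitors higher, beside 16.2%. The members with the largest steps for each compound were not in the same order: for EpA the largest log2 difference was that of *Nfkb2* (0.45) and for fatostatin that of *Nfkbie* (0.58).

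Whether fatostatin altered the response to EpA was tested as an interaction, the EpA effect on cells given fatostatin minus the EpA effect on cells without it. The log2 estimates were above 0 for all 10 members, from 0.02 for *Rela*, whose sign turned when some single libraries were left out, to 0.31 for *Nfkbiz*, which was 0.20 with a pseudocount of 1. Their median was 0.11, beside 0.00895 for all tested genes. None of these differences passed the test: 0 of 10 members were called (limma, adjusted p from 0.440 to 0.966), 5 of 10 had an unadjusted p below 0.05, as did 1083 of all 13733 genes, and voom of limma on recovered reads also called 0. Of all genes, 0.0364% were called with a larger and 0.00728% with a smaller effect. The 95% intervals reached from 0.08 to 0.53 for *Nfkbiz*, from 0.06 to 0.34 for *Tnfaip3*, from 0.03 to 0.27 for *Nfkbia*, from 0.02 to 0.20 for *Nfkb2*, and from 0.004 to 0.12 for *Nfkb1*, the 5 members with an unadjusted p below 0.05. For *Relb*, which rose by 0.35 with EpA alone and by 0.44 in the presence of fatostatin, the interval of the difference was −0.09 to 0.28. Leaving out single libraries moved the estimates of *Relb* (0.10) between 0.047 (without fatostatin replicate 1) and 0.14, of *Rel* (0.09) between 0.054 (without replicate 1 of the combination, or EpA replicate 3) and 0.14, and of *Nfkbie* (0.18) between 0.12 and 0.27 (without EpA replicate 3). The *Relb* estimate was also over 1.5 times smaller without DMSO replicate 2 or EpA replicate 2. Each of *Relb*, *Nfkb2*, *Nfkbia*, *Nfkbie*, and *Tnfaip3* was called higher with EpA whether or not fatostatin was present, although the *Tnfaip3* call without fatostatin depended on the groups in the fit.

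**Figure D3:**
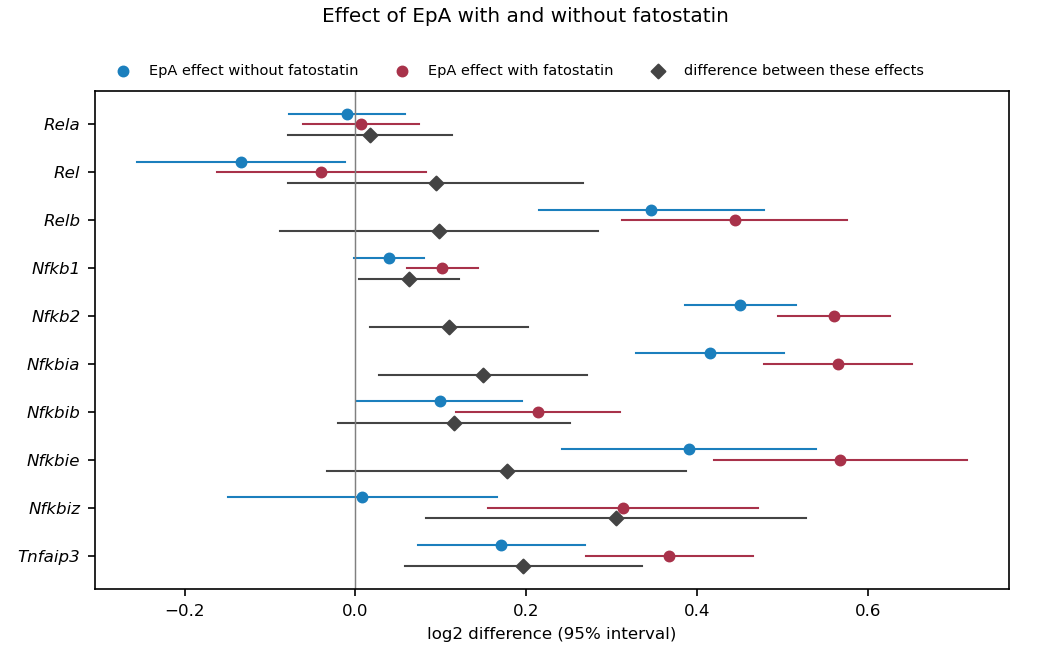
Effect of EpA on each member as a log2 difference with its 95% interval, without fatostatin (blue circles), with fatostatin (red circles), and the difference between both (gray diamonds). All 10 diamonds lie to the right of 0, between 0.02 and 0.31, and none passed an adjusted p of 0.05.

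The order of levels within the family changed little between groups. In DMSO it ran *Nfkb1*, *Nfkbia*, *Nfkb2*, *Rela*, *Nfkbib*, *Tnfaip3*, *Rel*, *Nfkbie*, *Relb*, and *Nfkbiz*, and the only neighbors whose libraries overlapped were *Nfkb2* and *Rela* (25.4 ± 1.08 and 24.7 ± 0.697 FPKM, SD, n = 3). Those 2 genes came apart with the compounds. *Nfkb2* was 1.03 ± 0.0614 times the level of *Rela* in DMSO, 1.42 ± 0.0410 times in EpA, 1.25 ± 0.0446 times in fatostatin, and 1.84 ± 0.0413 times with both compounds (SD, n = 3). *Nfkbie*, which ranked below *Rel* in DMSO, was above it in EpA without overlap, overlapped it in fatostatin, and was 1.53 times its level with both compounds. The level of *Nfkbia* relative to *Rela*, the subunit that its protein holds, was 1.18 ± 0.0407, 1.58 ± 0.0434, 1.47 ± 0.0840, and 2.16 ± 0.0851 in the order DMSO, EpA, fatostatin, and both compounds.

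As a share of the summed FPKM of the 5 subunits, *Nfkb2* grew and *Rela* shrank. The sum was 126 ± 1.07 FPKM in DMSO, 138 ± 0.999 FPKM in EpA, 145 ± 1.97 FPKM in fatostatin, and 167 ± 1.08 FPKM with both compounds (SD, n = 3). *Nfkb2* made up 20.1%, 25.3%, 21.5%, and 27.6% of it in that order. *Rela* made up 19.6%, 17.8%, 17.2%, and 15.0%, with no overlap between DMSO and any other group. *Nfkb1* held 52.9%, 49.9%, 53.3%, and 49.7%, lower in each EpA library than in each library without EpA. *Rel* ranged from 4.07% in EpA to 5.10% in fatostatin, and *Relb* from 2.49% in DMSO to 3.45% with both compounds. The summed inhibitors were 58.2 ± 2.09, 71.5 ± 1.03, 68.2 ± 1.66, and 94.6 ± 1.69 FPKM. These shares and sums describe transcripts and were not tested.

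**Figure D4:**
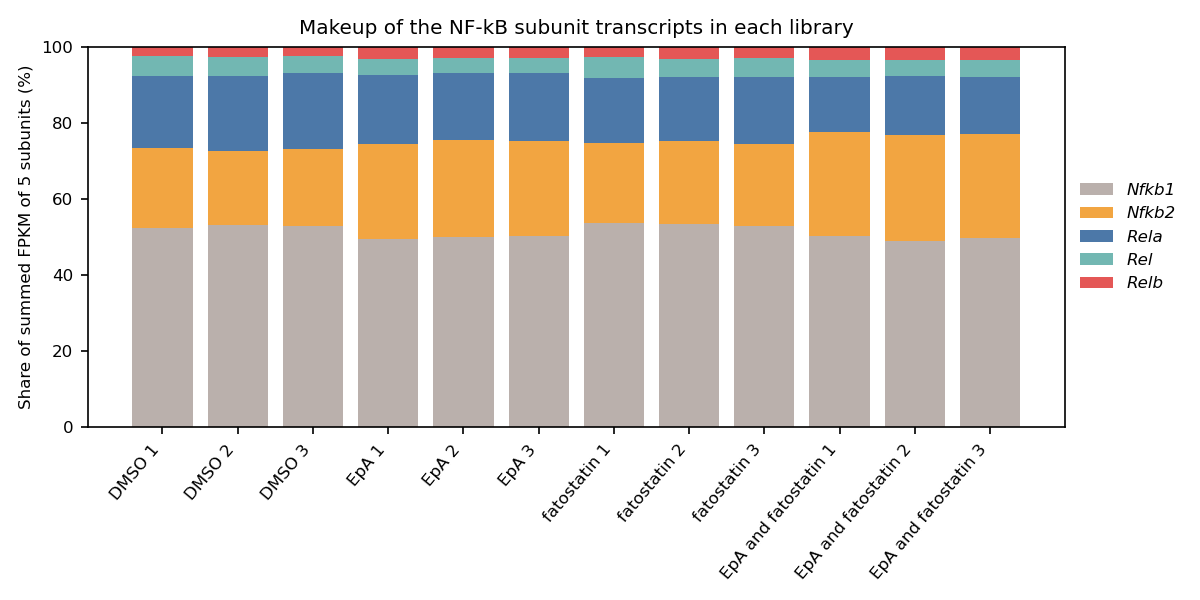
Share of each subunit in the summed FPKM of the 5 subunits (vertical axis, percent) in each of the 12 libraries. *Nfkb1* is the largest part of every bar (48.9% to 53.7%), and the *Nfkb2* part is widest in the 3 libraries with both compounds (27.4% to 28.1%) where the *Rela* part is narrowest (14.5% to 15.5%).

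Genes of antigen receptor signaling and IKK activation, the activating machinery of the pathway, were called about as often as genes at large with EpA. In a list of 25 such genes, 3 rose (12%) and 4 fell (16%) with EpA, beside 14.3% and 13.1% of all tested genes. With fatostatin 3 rose (12%) and 1 fell (4%), beside 7.69% and 6.31% of all genes. With both compounds, 3 rose (12%) and 0 fell against EpA, beside 9.22% and 6.79% of all genes, and 4 rose (16%) and 6 fell (24%) against fatostatin, beside 16.2% and 13.3%. Its median log2 differences were −0.06, −0.00098, 0.03, and −0.06. *Tab1*, a partner of the kinase TAK1, fell from 7.08 ± 0.223 FPKM in DMSO to 5.77 ± 0.204 FPKM in EpA (log2 difference −0.29, adjusted p = 0.000159), and *Vav1*, an exchange factor below the T cell receptor, from 44.5 ± 0.802 to 40.6 ± 0.0932 FPKM (−0.13, adjusted p = 0.000192). With fatostatin, *Lcp2*, the adaptor SLP-76, rose from 54.6 ± 1.504 to 60.6 ± 0.636 FPKM (0.15, adjusted p = 0.00174) and *Map3k7*, the kinase TAK1 itself, from 29.4 ± 0.594 to 32.4 ± 0.993 FPKM (0.14, adjusted p = 0.00735). *Map3k7* did not pass the test with EpA (0.001, adjusted p = 0.984). The counts for this list moved from 4 to 2 with fatostatin without fatostatin replicate 1, and from 3 to 6 for both compounds against EpA without DMSO replicate 2.

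The noncanonical list held 13 genes, mostly receptors of the TNF family and the TRAF and cIAP proteins that restrain NIK. With EpA 4 rose (30.8%, beside 14.3% of all genes) and 2 fell (15.4%, beside 13.1%), and with fatostatin 3 rose (23.1%, beside 7.69%) and 0 fell (beside 6.31%). With both compounds 3 rose (23.1%, beside 9.22%) and 1 fell (7.69%, beside 6.79%) against EpA, and 5 rose (38.5%, beside 16.2%) and 2 fell (15.4%, beside 13.3%) against fatostatin. On so few genes, a share moves by many points with 1 gene, and the median log2 differences were 0.05, 0.07, 0.07, and 0.02. *Tnfrsf18*, which encodes the costimulatory receptor GITR, rose from 70.5 ± 2.59 FPKM in DMSO to 84.1 ± 1.43 FPKM in EpA (0.25, adjusted p = 6.35e-05) and 77.96 ± 1.58 FPKM in fatostatin (0.14, adjusted p = 0.00596). *Tnfrsf1b*, TNF receptor 2, fell with EpA from 25.9 ± 0.962 to 21.3 ± 0.498 FPKM (−0.28, adjusted p = 4.27e-05). *Cd40*, a receptor best known from antigen-presenting cells, was at 2.06 ± 0.162 FPKM in DMSO and rose to 2.82 ± 0.220 FPKM with fatostatin (0.43, adjusted p = 0.0113).

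Among 18 other negative regulators, 2 rose (11.1%) and 3 fell (16.7%) with EpA, and 1 rose and 1 fell (5.56% each) with fatostatin, which is near the 14.3% and 13.1%, and 7.69% and 6.31%, of all genes. With both compounds, 0 rose and 1 fell (5.56%) against EpA, beside 9.22% and 6.79% of all genes, and 5 rose (27.8%) and 3 fell (16.7%) against fatostatin, beside 16.2% and 13.3%. The median log2 differences were 0.01, −0.02, 0.05, and 0.03. *Tnip2*, whose product ABIN-2 binds A20, rose with EpA from 12.3 ± 0.554 to 15.6 ± 0.204 FPKM (0.34, adjusted p = 3.54e-05) and stood at 16.4 ± 0.426 FPKM with both compounds, while fatostatin alone left it at 11.97 ± 0.328 FPKM (−0.04, adjusted p = 0.503). *N4bp1*, a ubiquitin-binding inhibitor, fell with EpA from 14.3 ± 0.225 to 13.1 ± 0.209 FPKM (−0.13, adjusted p = 0.00937). With fatostatin, *Itch*, a ubiquitin ligase that works with A20, fell by 0.18 (adjusted p = 0.00376), and *Tax1bp1*, an adaptor of A20, rose by 0.16 (adjusted p = 0.0073). The single call for both compounds against EpA became 2 or 3 without any 1 library of DMSO or fatostatin and 0 without replicate 1 of the combination, and the 8 calls against fatostatin became 5 without replicate 2 of the combination.

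The list of 32 textbook NF-kB targets, of which 31 were tested because *Il2* lay under the minimum level, included cytokines, survival genes, and surface receptors. With EpA 15 rose (48.4%) and 5 fell (16.1%), beside 14.3% and 13.1% of all genes, and with fatostatin 6 rose (19.4%) and 3 fell (9.68%), beside 7.69% and 6.31%. With both compounds 12 rose (38.7%) and 1 fell (3.23%) against EpA, beside 9.22% and 6.79% of all genes, and 18 rose (58.1%) and 2 fell (6.45%) against fatostatin, beside 16.2% and 13.3%. Among all genes, too, more were called higher than lower in each comparison as scaled by the authors. Under median ratio scaling this turned for both compounds against EpA and for both compounds against fatostatin. Median log2 differences were 0.09, 0.07, 0.10, and 0.18. At 1.5-fold or more, 2, 1, 0, and 4 genes were higher, beside 1.44%, 1.35%, 1.51%, and 1.89% of all genes. On the lower side there were 0, beside 266, 69, 66, and 256 of all 13733 genes. *Lta*, which encodes the cytokine lymphotoxin α, made the largest step, from 16.2 ± 0.563 FPKM in DMSO to 41.8 ± 0.418 FPKM in EpA (log2 difference 1.36, adjusted p = 9.03e-09), beside 17.7 ± 1.10 FPKM in fatostatin (0.12, adjusted p = 0.133) and 54.0 ± 2.92 FPKM with both compounds. *Il2ra*, the high-affinity chain of the IL-2 receptor, rose with EpA from 693 ± 8.18 to 876 ± 1.44 FPKM (0.34, adjusted p = 6.73e-07). *Cd83*, a surface marker of activation, rose with fatostatin from 37.2 ± 0.923 to 57.4 ± 1.37 FPKM (0.63, adjusted p = 3.43e-08) and by a smaller step with EpA, to 39.99 ± 0.467 FPKM (0.11, adjusted p = 0.00899), and was 56.9 ± 1.26 FPKM with both compounds. *Ltb*, which encodes lymphotoxin β, rose with fatostatin from 19.6 ± 0.0563 to 23.3 ± 0.685 FPKM (0.25, adjusted p = 0.000142), and with EpA its difference of 0.02 did not pass the test (adjusted p = 0.711). The interaction was called for 0 genes of any of the 4 lists (limma, adjusted p from 0.297 upward for the targets, where 8 of 31 genes had an unadjusted p below 0.05, beside 1083 of all 13733), and voom on recovered reads called 2 targets.

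**Figure D5:**
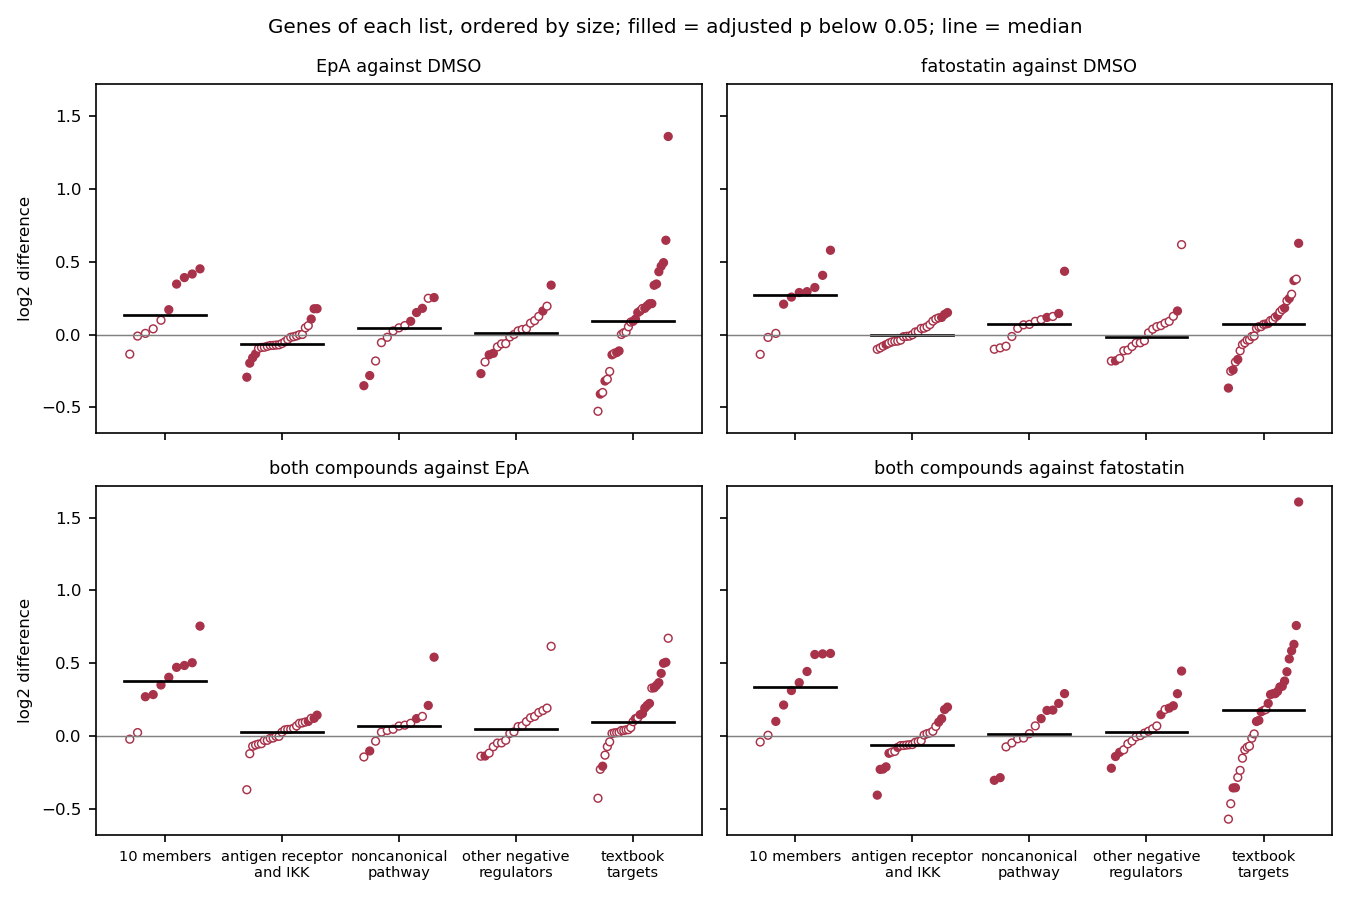
Log2 differences (vertical axis) of every tested gene of the 10 members and the 4 pathway lists, ordered by size within a list, in the 4 comparisons; filled points passed an adjusted p of 0.05 and the black line is the list's median. The members' median is the highest line in each panel (0.13, 0.27, 0.38, and 0.34), and the highest single point with EpA, *Lta*, lies at 1.36.

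Over the 4 group means, the genes with a pattern nearest to that of *Nfkbie* were sought among the 10298 genes that averaged 1 FPKM or more, by the mean absolute difference of centered log2 group means. The nearest were *Igkc* (0.045), *Mir6955* (0.050), *Psd* (0.052), *Fbxw9* (0.063), and *Btla* (0.065). *Btla*, an inhibitory receptor of lymphocytes, was the only one above 5 FPKM in all groups, at 5.47 ± 0.0375 FPKM in DMSO, 6.88 ± 0.177 FPKM in EpA, 8.32 ± 0.632 FPKM in fatostatin, and 10.8 ± 0.377 FPKM with both compounds (SD, n = 3). *Mir6955* varied as much between libraries of DMSO as its mean there (1.39 ± 1.4997 FPKM), and *Psd* is the gene that overlaps *Nfkb2*. Of the other members, *Relb* came nearest, at rank 22 (0.106), followed by *Nfkbia* at rank 49, *Tnfaip3* at rank 57, and *Nfkb2* at rank 75, while *Rela* was at rank 3482 and *Nfkbib* at rank 7483. This likeness rests on 4 points and is a description.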

How the data were processed

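RNA-seq was measured in 12 libraries of mouse Th9 cells, 3 in each of 4 groups. The authors used Trim Galore for trimming, HISAT2 for alignment to GRCm38, and featureCounts for gene counts, and deposited FPKM. The annotation release and strand setting are not given in the sources used here. Of 32352 lines, 301 repeat a gene with the same values. With GENCODE exon lengths (99.9% of genes), 98.3% to 98.4% of values above 0 in a library were whole reads within 0.02. Replicate libraries correlated at 0.985 to 0.988, and 0 pairs were identical. The scale of the tests was log2(FPKM + 0.1). Genes averaging 0.1 FPKM or more were tested in limma 3.58.1 (R 4.3.3), with 4 group means, an intensity trend, and Benjamini-Hochberg adjustment over all tested genes; the method was checked on simulated data. An exact two-sided permutation test of 3 against 3 libraries cannot go below 0.1. Fold changes are on the log2(FPKM + 0.1) scale, which understates changes of low genes.

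The text names all 10 members, up to 4 genes of each list (the 2 smallest adjusted p-values with EpA and with fatostatin among called genes averaging 1 FPKM or more), and the 5 genes nearest in pattern to the member of widest range. Members, lists, and tests were chosen with earlier results of these data known, and 9 genes are in 2 lists. Alternatives changed the pseudocount, minimum level, scaling, groups in the fit, trend, replicate block, count model (voom), and libraries, each left out in turn.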

Additional observations from a re-analysis of the deposited data

How the results depend on the processing

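Of 28 called member differences, 26 kept direction and call in all 21 alternatives and 0 reversed. The exceptions were *Tnfaip3* with EpA and *Nfkbiz* with both compounds against EpA, described above. Of 22 uncalled differences, 2 were called somewhere (*Rel* with EpA, and *Nfkbib* with fatostatin) and 9 changed sign, all close to 0, and the cause was not tested. With median ratio scaling, *Rela* with both compounds against fatostatin was −0.00759, and scalings moved the median of all genes by at most 0.0173. With 1 library left out, *Rela* ranged from −0.0295 to 0.0108 (EpA against DMSO), −0.0110 to 0.0293 (fatostatin against DMSO), −0.00207 to 0.0476 (both against EpA), −0.0205 to 0.0292 (both against fatostatin), and −0.0104 to 0.0393 (difference of EpA effects). *Nfkbiz* ranged from −0.0329 to 0.0517 (EpA) and −0.0605 to 0.0233 (fatostatin), *Nfkbib* from −0.0491 to 0.0376 (both against EpA), and *Rel* from −0.0800 to 0.00301 (both against fatostatin). Members called numbered 4 to 6 for EpA, 7 to 8 for fatostatin, 7 to 8 for both against EpA, 8 for both against fatostatin, and 0 for the difference, which had 20 alternatives because a fit of only the compared groups does not apply to it.

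Across alternatives, calls among antigen receptor and IKK genes ran from 2 to 6 (fatostatin) and 1 to 7 (both against EpA), and among other negative regulators from 2 to 4 and 0 to 7. Libraries share a replicate number by title only. Same-numbered libraries correlated between −0.0881 and 0.113 in their deviations. For 6 of 18 pairs, the second library was the best match of the first among the 3 libraries of the second group. The numbers were therefore not taken as pairs. With a replicate block, *Rel* with EpA was called (−0.13, adjusted p = 0.0304), the antigen receptor and IKK calls for both compounds against EpA rose from 3 to 5, and no other member call changed. *Nfkbiz* rested on the fewest reads of the members, 272 to 390 a library.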
